A study of Mus musculus with 40 samples.

Results

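The PYHIN proteins of the mouse Ifi200 family are interferon-inducible and carry a HIN domain, which binds DNA, usually behind a pyrin domain, which binds other proteins. Aim2, the best known of them, detects double-stranded DNA in the cytosol and assembles an inflammasome, the complex that activates caspase-1. Most of the others are known mainly as interferon-inducible genes of macrophages and other immune cells, and in the mouse they lie side by side as a recently duplicated cluster. Lipopolysaccharide (LPS), a bacterial cell wall component, is known to induce type I interferon through Toll-like receptor 4, and this interferon in turn switches on genes with interferon response elements in their promoters.

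The 5 listed genes were Ifi207, Ifi213, Ifi204, Ifi203 and Aim2, and they were found by the symbol of their probe set in an array annotation. A probe set with that symbol alone was present for 4 of the 5, and the probe set of Ifi204 was shared with Ifi211, so Ifi204 is not described. The 4 genes, each with 1 probe set, stood among 19937 genes with a value. A further 6 genes of the same family had a probe set of their own (Ifi202b, Ifi205, Ifi206, Ifi208, Ifi209 and Ifi214). The listed genes were chosen with earlier results of these data known, and they were probably selected on their differences between LPS-treated and untreated brains. Which values chose them is not recorded. Those differences are therefore given as a description, without a p-value. Other differences may have taken part in the choice, so the p-values given for the listed genes may not be independent of it.

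Expression was measured on 40 Affymetrix arrays of total brain RNA from postnatal day 9 C57/Bl6 mice, 5 arrays for each of 8 groups. In the LPS/HI groups, LPS was followed 14 h later by hypoxia-ischaemia (HI), and at 6 h after HI, thus 20 h after LPS, the left hemisphere (injured) and the right (uninjured) were collected separately. Pretreatment, 4 h ahead of LPS, was either IDR-1018 (IDR), a synthetic peptide that modulates innate immunity, or vehicle. The groups are named LPS/HI+IDR injured, LPS/HI injured, LPS/HI+IDR uninjured and LPS/HI uninjured. LPS alone was given to the LPS group, LPS after the same IDR pretreatment to the LPS+IDR group, and brains of both were removed 6 h after LPS. The IDR group received the peptide, and the Vehicle group received vehicle, 10 h before removal. No group had HI without LPS, so in the LPS/HI hemispheres the 2 treatments cannot be told apart. Values are log2 signals from robust multi-array averaging (RMA), which puts all arrays on 1 distribution. A signal of 1 probe set cannot be set against that of another, so each gene is followed across groups only.

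Array medians lay between 6.99 and 7.13, and any 2 arrays correlated at 0.986 to 0.998 over all genes. Neuron markers were high in every group, with group means between 12.08 and 12.21 over 8 genes. The groups differed in sex, which the labels do not give. The transcript Xist, made from the inactive X chromosome of females, was high on 5 of 5 LPS arrays, 2 of 5 Vehicle arrays, 2 of 5 LPS+IDR arrays and 1 of 5 IDR arrays, and on 3 or 4 of 5 in each LPS/HI group. The third array of the LPS/HI injured group stood apart. It was high both in Xist (11.2) and in 4 Y-linked genes (mean 8.0), whereas the other arrays high in Xist had at most 4.5 for the Y-linked genes. Differences between this group and others are given with and without it for the described genes, for the other family genes that were called and for the gene lists. Group means, ranges and correlations include it.

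The family lies on chromosome 1. In RefSeq's GRCm38.p6 its 13 genes span chr1:173349547-174031755, or 682 kb. Aim2 is at 173349547 to 173466040, Ifi213 at 173566280 to 173599348, Ifi207 at 173723424 to 173741831 and Ifi203 at 173920400 to 173942866. A core interferon-stimulated response element can be written GAAANNGAAA, where N is any base. These letters were searched on both strands of the 300 bases around each RefSeq start, 250 before it and 50 after it. They were in 1131 of 32851 promoters of all genes, or 3.44%, and in a promoter of 1079 of 27025 genes, or 3.99%. Among the PYHIN family, 12 of 13 genes had a promoter in the table, and 9 of them held the letters. All 9, which include 3 of the 4 described genes, held them on the strand of the gene.

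The windows of 60 bases below, read 5′ to 3′ on the strand of each gene, show the matched letters in capitals for the described genes and for 3 other family genes. Ifi205 is the other family gene that was called between hemispheres, and Ifi208 carries the window of Ifi213 letter for letter. Ifi209 and Aim2 hold no match in the bases searched. The window of Aim2 was cut at the same distance from its start as that of Ifi213. The only start searched for Aim2 lies inside the gene span given above, so the bases around 173349547 were not searched.
Ifi207, chr1:173741816-173741875, minus strand: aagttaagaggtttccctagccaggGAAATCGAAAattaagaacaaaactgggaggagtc
Ifi213, chr1:173599311-173599370, minus strand: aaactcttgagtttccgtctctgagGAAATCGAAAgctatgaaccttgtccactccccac
Ifi203, chr1:173942493-173942552, minus strand: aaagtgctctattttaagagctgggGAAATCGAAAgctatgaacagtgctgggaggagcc
Ifi205, chr1:174031855-174031914, minus strand: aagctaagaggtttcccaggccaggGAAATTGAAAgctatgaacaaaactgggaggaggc
Ifi208, chr1:173673582-173673641, plus strand: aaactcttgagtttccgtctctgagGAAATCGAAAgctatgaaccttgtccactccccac
Ifi209, chr1:173630755-173630814, plus strand: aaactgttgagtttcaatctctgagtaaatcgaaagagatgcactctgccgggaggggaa
Aim2, chr1:173420506-173420565, plus strand: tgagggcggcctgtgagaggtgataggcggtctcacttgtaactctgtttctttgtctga

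The match began 41 bases before the start of Ifi207, 73 before that of Ifi213 and 35 before that of Ifi203, whose second RefSeq start is the one with the match. In Ifi205 it began 134 bases before the start. The exact letters of the match in Ifi207, GAAATCGAAA, singled out after the sequences were read, were in 16 of all 32851 promoters (0.0487%), and 7 of those 16 genes belonged to this family. The windows of Ifi207 and Ifi205 were the same at 52 of 60 bases. Over the whole promoters Ifi213 and Ifi208 were 89.5% identical, and Ifi203 and its neighbour Mndal were 90.7% identical. These are promoters, and the transcribed sequences were not compared. The signal of a probe set may hold RNA of a neighbouring copy, which was not tested.

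**Figure D1:**
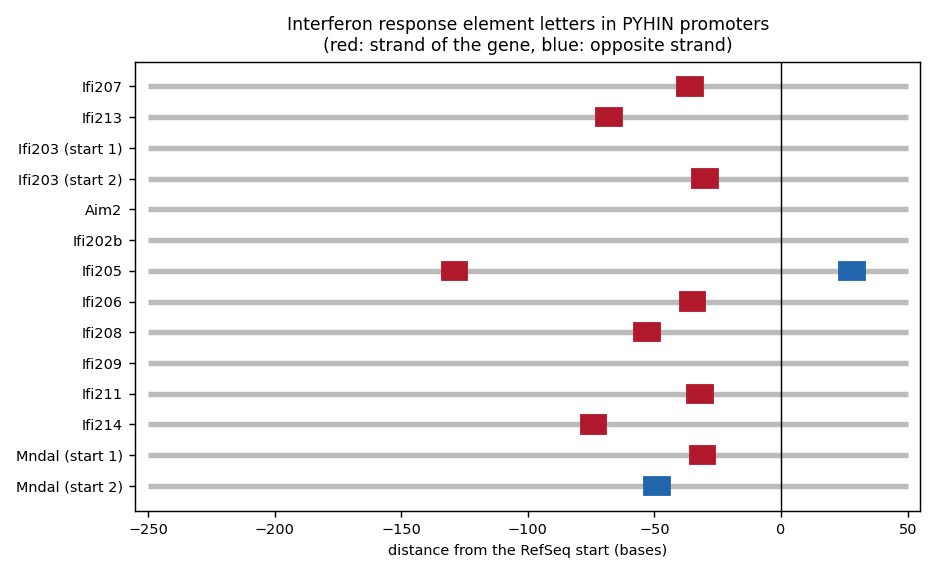
Positions of the letters GAAANNGAAA in the RefSeq promoters of the PYHIN family, with the distance from the start in bases on the horizontal axis and 1 row per start. Red boxes are matches on the strand of the gene and blue boxes on the opposite strand. Matches on the strand of the gene lie 35 to 41 bases before a start in Ifi207, Ifi203, Ifi206, Ifi211 and Mndal. Mndal has a further match on the opposite strand, 54 bases before its other start, and Aim2, Ifi202b and Ifi209 have none.

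Ifi207, the gene of the 4 with the widest range, was at its lowest in the brains without LPS. Its log2 signal was 7.27, 7.87, 7.32, 6.68 and 7.58 in LPS/HI+IDR injured hemispheres and 7.66, 7.72, 7.63, 7.52 and 7.10 in LPS/HI injured hemispheres. It was 6.51, 6.26, 6.62, 6.38 and 6.11 in LPS/HI+IDR uninjured hemispheres and 7.13, 7.03, 7.19, 6.79 and 6.55 in LPS/HI uninjured hemispheres. Every one of these 20 arrays lay above every array without LPS. At 6 h after LPS it was 6.60, 7.34, 7.59, 6.60 and 7.04 in LPS+IDR brains and 6.29, 6.88, 6.41, 6.52 and 6.64 in LPS brains. In the brains without LPS it was 5.41, 5.52, 5.75, 5.71 and 5.52 with IDR and 5.09, 5.33, 5.66, 5.78 and 5.37 with Vehicle. The 10 arrays at 6 h after LPS therefore did not overlap with the 10 arrays without LPS either.

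By group mean, the order for Ifi207 was LPS/HI injured (7.53 ± 0.25), LPS/HI+IDR injured (7.34 ± 0.44), LPS+IDR (7.04 ± 0.44), LPS/HI uninjured (6.94 ± 0.26), LPS (6.55 ± 0.23), LPS/HI+IDR uninjured (6.37 ± 0.20), IDR (5.58 ± 0.14) and Vehicle (5.45 ± 0.28; SD, n = 5 each). Neighbours in this order differed by more than the larger of their SDs only between LPS/HI uninjured and LPS, by 0.39, and between LPS/HI+IDR uninjured and IDR, by 0.79. The differences from the brains without LPS were described with limma's standard errors. LPS brains were 1.10 ± 0.13 above Vehicle brains, or 2.15-fold, and LPS+IDR brains 1.45 ± 0.17 above IDR brains, or 2.74-fold. LPS/HI injured hemispheres were 2.08 ± 0.14 above Vehicle brains, or 4.23-fold, and LPS/HI uninjured hemispheres 1.49 ± 0.14. LPS/HI+IDR injured hemispheres were 1.76 ± 0.17 above IDR brains, and LPS/HI+IDR uninjured hemispheres 0.79 ± 0.10.

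Ifi203, another interferon-inducible family gene, was highest in LPS+IDR brains. There its log2 signal was 6.74, 7.77, 7.93, 6.80 and 7.24, against 6.02, 6.84, 6.61, 7.12 and 6.67 in LPS brains. It was 5.99, 6.09, 6.35, 6.63 and 6.36 in IDR brains and 6.29, 5.70, 6.74, 6.48 and 6.45 in Vehicle brains. The LPS+IDR arrays were spread most widely, and all 5 lay above the IDR arrays. In the hemispheres after HI the ranges were 6.28 to 6.91 (LPS/HI+IDR injured), 6.60 to 6.87 (LPS/HI injured), 6.60 to 6.89 (LPS/HI+IDR uninjured) and 6.75 to 7.31 (LPS/HI uninjured). The differences were 1.01 ± 0.21 for LPS+IDR against IDR, 0.64 ± 0.16 for LPS/HI uninjured against Vehicle, 0.48 ± 0.11 for LPS/HI+IDR uninjured against IDR and 0.27 to 0.37 in the other 3 comparisons with brains that had no LPS. No neighbouring pair of group means differed by more than its larger SD.

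Ifi213 stayed within a narrow band. Its means were 5.16 ± 0.11 (LPS/HI+IDR injured), 5.53 ± 0.20 (LPS/HI injured), 5.36 ± 0.24 (LPS/HI+IDR uninjured), 5.29 ± 0.17 (LPS/HI uninjured), 5.49 ± 0.35 (LPS+IDR), 5.28 ± 0.21 (LPS), 5.08 ± 0.33 (IDR) and 4.83 ± 0.32 (Vehicle; SD, n = 5 each). No neighbours in the order of these means differed beyond their spread. The LPS/HI injured arrays, at 5.57, 5.39, 5.27, 5.77 and 5.65, all lay above the Vehicle arrays, at 5.05, 5.06, 4.48, 5.06 and 4.49. That difference was 0.71 ± 0.14, or 1.63-fold, and the LPS/HI uninjured arrays were 0.47 ± 0.13 above Vehicle. These groups barely separated, since the lowest LPS/HI uninjured array was at 5.07 and the highest Vehicle arrays at 5.06. In LPS/HI+IDR injured hemispheres the difference from IDR brains was 0.08 ± 0.13.

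Of the 4 described genes Aim2, the DNA sensor, varied least between groups. Its lowest group mean was 6.73 ± 0.14 in LPS brains and its highest 7.08 ± 0.33 in LPS/HI uninjured hemispheres (SD, n = 5 each). Single arrays spread more than that, between 6.51 and 7.53 in the LPS/HI+IDR uninjured group and between 6.43 and 7.15 in the Vehicle group. Against the brains without LPS its 6 differences lay between -0.09 ± 0.12 (LPS against Vehicle) and 0.26, and the groups overlapped in all 6. The value of 0.26 was reached with an SE of 0.16 in LPS/HI uninjured hemispheres against Vehicle brains. It was reached with an SE of 0.07 in LPS/HI+IDR injured hemispheres against IDR brains.

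**Figure D2:**
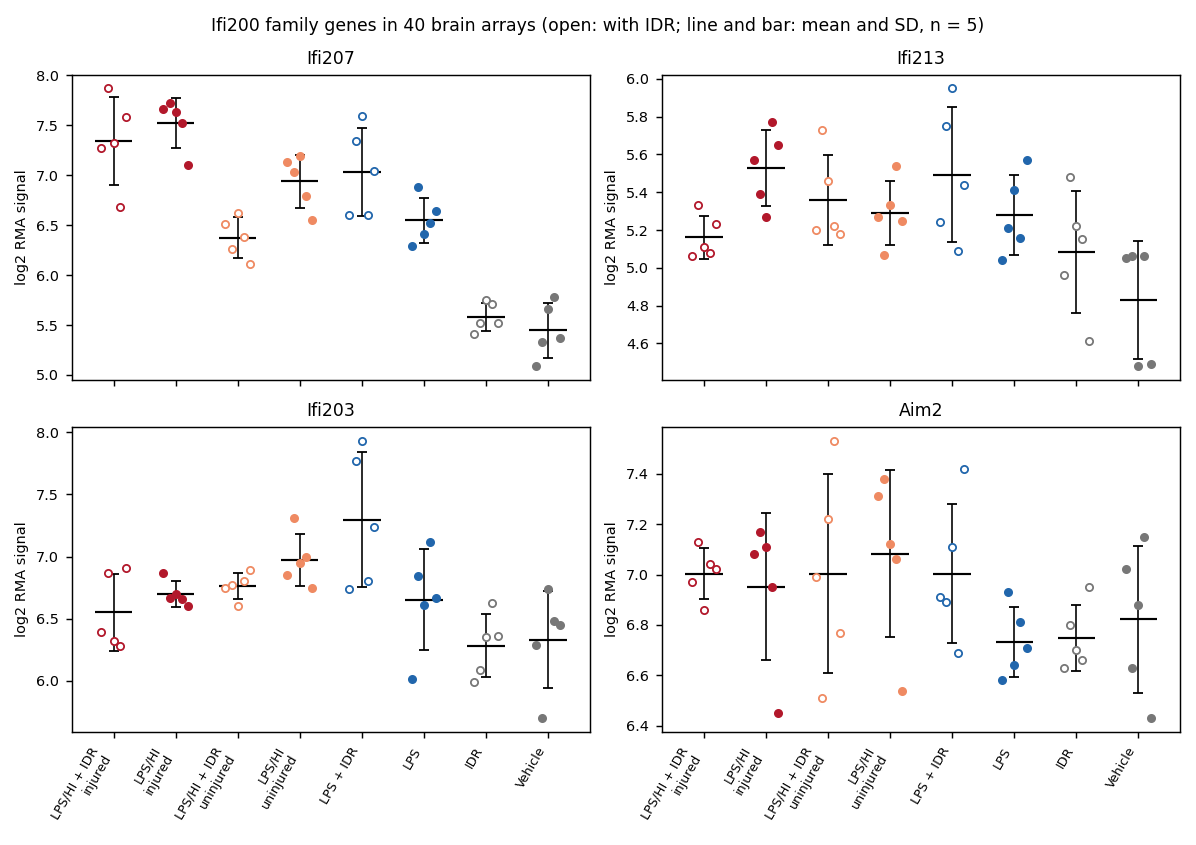
Log2 RMA signal of the 4 described genes on all 40 arrays, with the 8 groups on the horizontal axis, open points for groups with IDR, and lines and bars for the mean and SD of 5 arrays. For Ifi207 the 30 arrays from LPS-treated pups lie between 6.11 and 7.87 and the 10 arrays without LPS between 5.09 and 5.78, whereas the groups of Aim2 overlap.

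With an adjusted p under 0.05 over all genes as the threshold, 1 of the 4 genes, Ifi207, was called higher in LPS than in Vehicle brains, where 0.732% of all genes were. In LPS+IDR against IDR brains 2 were called higher, Ifi207 and Ifi203, beside 1.16% of all genes. In LPS/HI injured hemispheres against Vehicle brains 2 were, Ifi207 and Ifi213, beside 4.45%. Ifi207 was the 1 gene called in LPS/HI uninjured against Vehicle (0.411%), in LPS/HI+IDR uninjured against IDR (0.181%) and in LPS/HI+IDR injured against IDR (3.52%). The other differences did not pass the threshold. Groups with every array higher than every array of the other were found for Ifi207 in all 6 comparisons, for Ifi203 in LPS+IDR against IDR and LPS/HI uninjured against Vehicle, and for Ifi213 in both LPS/HI hemispheres against Vehicle. Over all genes the share higher without overlap was 1.19% in LPS and 1.89% in LPS+IDR brains. It was 4.37% in LPS/HI+IDR injured, 4.46% in LPS/HI injured, 0.552% in LPS/HI+IDR uninjured and 0.893% in LPS/HI uninjured hemispheres, each against IDR or Vehicle brains. These counts describe the values that probably led to the choice of the genes and are no evidence about them. With Xist as a covariate, which adjusts for sex, the difference between LPS and Vehicle brains was 1.33 for Ifi207 and 0.64 for Ifi203, and the call of Ifi203 between LPS+IDR and IDR was lost although its difference, 1.02, was close to the 1.01 without the covariate. That call was lost also without LPS+IDR array 2 or 5 or IDR array 1, 2, 3 or 5, with differences of 0.90 to 1.03. Without the LPS/HI injured array that was high in both sex-linked signals, the differences between LPS/HI injured hemispheres and Vehicle brains were 2.05 for Ifi207, 0.77 for Ifi213, 0.37 for Ifi203 and 0.09 for Aim2. Ifi203 was called in LPS/HI+IDR uninjured against IDR without IDR array 4 (0.57), and Aim2 in LPS/HI+IDR injured against IDR without injured array 3 (0.29) or IDR array 5 (0.31).

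The comparison of hemispheres asks what the injury adds within brains that all had LPS and HI. Ifi207 was higher in the injured hemisphere with and without the peptide, and the other 3 described genes were not called. The choice of the genes may have used these differences too, and then their p-values only describe them. With IDR, the injured arrays ran from 6.68 to 7.87 and the uninjured arrays from 6.11 to 6.62, so that the groups did not overlap. The difference was 0.97 ± 0.17 (95% interval 0.59 to 1.35), or 1.96-fold, with an adjusted p of 0.0117 in limma. In this comparison 1.8% of all genes were called higher, and 3.18% were higher with no overlap. The call held in all 16 settings tried.

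Without the peptide, the injured arrays of Ifi207 ran from 7.10 to 7.72 and the uninjured arrays from 6.55 to 7.19, with 1 injured array inside the uninjured range. The difference was 0.59 ± 0.13 (95% interval 0.30 to 0.88), or 1.5-fold, with an adjusted p of 0.0304 in limma, where 2.18% of all genes were called higher. It was positive at 5 of 5 sample numbers, by 0.53, 0.69, 0.44, 0.73 and 0.55. With the sample number as a block, which fits the hemispheres as pairs, the adjusted p was 0.000611, and 2032 genes were called in place of 596. Without the array that was high in both Xist and Y-linked genes, the difference was 0.56 and its adjusted p 0.0625. The call was also lost without injured array 1, 2 or 4 or uninjured array 2, 4 or 5, with differences of 0.49 to 0.61 and adjusted p-values of 0.0549 to 0.0899, and with arrays centred on their medians (0.56, adjusted p 0.0549).

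The remaining genes differed little between hemispheres. Ifi203 had a difference of -0.27 ± 0.10 without the peptide (adjusted p 0.169) and -0.21 ± 0.12 with it (adjusted p 0.515). Ifi213 had 0.24 ± 0.10 without (adjusted p 0.294) and -0.20 ± 0.10 with (adjusted p 0.435). Aim2 had -0.13 ± 0.16 without (adjusted p 0.801) and 0.00 ± 0.15 with, with a 95% interval of -0.32 to 0.33 for the second. The opposite signs of Ifi213 and the larger difference of Ifi207 under IDR did not pass the test of injury by peptide. With limma 0 genes passed it. An unadjusted p under 0.05 was found for 361 genes, fewer than the share of 0.05 of all 19937 that chance alone gives. The test gave 0.38 (95% interval -0.12 to 0.88, adjusted p 1) for Ifi207 and -0.43 (95% interval -0.76 to -0.11, unadjusted p 0.0104, adjusted p 1) for Ifi213. Without the array high in both sex-linked signals these were 0.41 and -0.50, and the differences between hemispheres without the peptide were 0.30 for Ifi213 (adjusted p 0.137), -0.27 for Ifi203 (0.208) and -0.17 for Aim2 (0.712).

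Of the 6 other family genes, 1, Ifi205, was called higher in the injured hemisphere with the peptide, beside 1.8% of all genes, and none was without the peptide, beside 2.18%. With IDR its log2 signal was 5.08, 5.32, 5.55, 5.15 and 5.24 in injured hemispheres, against 4.50, 4.71, 4.61, 4.68 and 4.85 in uninjured hemispheres. These groups did not overlap, and the difference was 0.60 ± 0.09 (adjusted p 0.00467 in limma). Without the peptide it was 0.33 ± 0.11 (adjusted p 0.165), positive at 5 of 5 numbers, and it was called with the number as a block (adjusted p 0.0121). It was 0.25 (adjusted p 0.26) without the array high in both sex-linked signals. Ifi205 was also higher in LPS/HI injured hemispheres than in Vehicle brains, by 0.63 ± 0.11 (adjusted p 0.00318), or 0.55 without that array (adjusted p 0.00706), and in LPS/HI+IDR injured hemispheres than in IDR brains, by 0.54 ± 0.12 (adjusted p 0.0164).

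Ifi209 was higher in LPS/HI injured hemispheres than in Vehicle brains by 0.46 ± 0.13 (adjusted p 0.0385), so that 2 of the 6 were called higher there, beside 4.45% of all genes. Without the array high in both sex-linked signals the difference of Ifi209 was 0.51 (adjusted p 0.0347). The call was lost with the block (adjusted p 0.0584). It was lost also without injured array 1, 4 or 5, without any 1 of the 5 Vehicle arrays (adjusted p 0.0515 to 0.103 over these 8), and with all groups in 1 fit (0.0846), median centring (0.0518) or Xist as a covariate (0.0659). Ifi202b reached 4.88, 4.13, 3.81, 4.22 and 4.35 in LPS brains, against 3.77, 3.78, 3.55, 3.63 and 3.59 in Vehicle brains, with no overlap, a difference of 0.62 ± 0.15 and an adjusted p of 0.0983. It was called in 2 of 15 settings, among them without LPS array 3 (0.73, adjusted p 0.0161). With Xist as a covariate it was 0.51 (adjusted p 0.79 in limma). Ifi206, Ifi208 and Ifi214, whose promoters hold the same 10 letters as that of Ifi207, were called in none of the 14 comparisons of 2 groups. Signals were low for several of these genes, with every group mean under 5. The highest group mean was 4.36 for Ifi208, 4.53 for Ifi214, 4.28 for Ifi202b and 4.43 for Ifi209. It was also low, though above 5, for Ifi205 (5.27), Ifi206 (5.29) and the described gene Ifi213 (5.53). Whether low signal hid or shaped their differences was not tested. Ifi206 had a difference of -0.52 ± 0.14 between LPS/HI+IDR uninjured hemispheres and LPS+IDR brains (adjusted p 0.134). This difference passed in 2 of 16 settings, among them without uninjured array 5 (-0.63, adjusted p 0.0418). For Ifi208, with the window shared with Ifi213, the 6 differences from brains without LPS lay between -0.15 ± 0.09 and 0.19 ± 0.11.

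**Figure D3:**
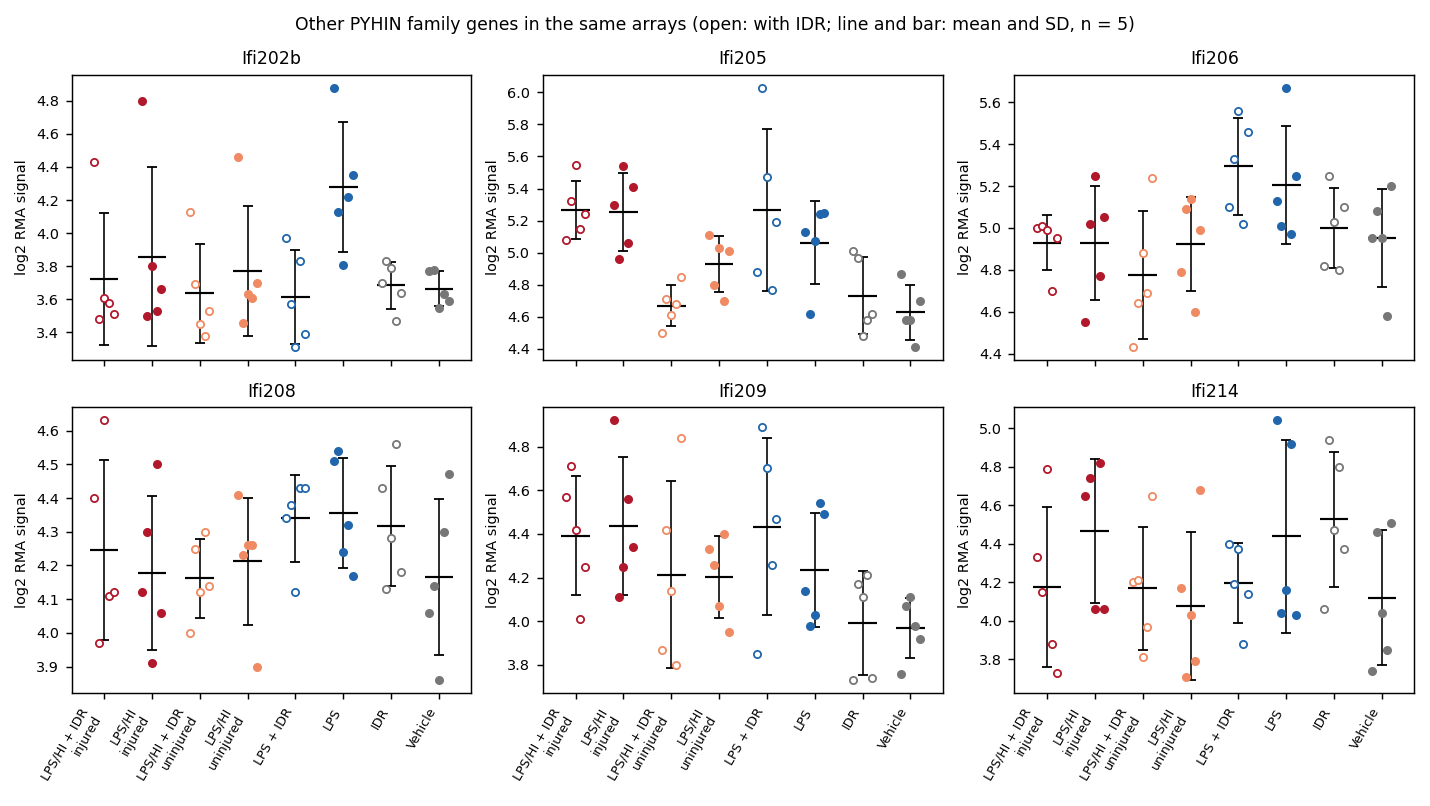
Log2 RMA signal of the 6 other PYHIN family genes on the same 40 arrays, with groups, points, lines and bars as for the 4 described genes. Ifi205 separates the injured from the uninjured LPS/HI+IDR hemispheres, and array 1 of several LPS/HI groups stands high for Ifi202b.

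The comparison of LPS/HI uninjured hemispheres with brains taken 6 h after LPS sets a late against an early sample. Time after LPS, HI, the use of a hemisphere in place of a whole brain and, without the peptide, the vehicle pretreatment cannot be told apart in it. Without the peptide no described gene was called, where 0.135% of all genes were. Ifi207 was 0.39 ± 0.13 higher in LPS/HI uninjured hemispheres than in LPS brains (adjusted p 0.72), Aim2 0.35 ± 0.13 (adjusted p 0.973), Ifi203 0.32 ± 0.17 (adjusted p 1) and Ifi213 0.02 ± 0.11 (adjusted p 1). With the peptide none was called either, where 0.637% of all genes were, and the values of Ifi207 and Ifi203 ran the other way. Ifi207 had a difference of -0.66 ± 0.17 between LPS/HI+IDR uninjured hemispheres and LPS+IDR brains (95% interval -1.03 to -0.29, adjusted p 0.121), and Ifi203 one of -0.54 ± 0.19 (adjusted p 0.281). In a fit of all 8 groups Ifi207 passed the threshold (adjusted p 0.0482).

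The same 4 groups can be read across the peptide. At 6 h after LPS, sex and the pretreatment itself differed together with the peptide. Xist was high on 5 of 5 LPS arrays and 2 of 5 LPS+IDR arrays, and no pretreatment is given for the LPS group. Ifi207 was 0.49 ± 0.18 higher in LPS+IDR than in LPS brains (95% interval 0.10 to 0.87, adjusted p 0.327). In the uninjured hemispheres its arrays were 6.51, 6.26, 6.62, 6.38 and 6.11 in the LPS/HI+IDR group, against 7.13, 7.03, 7.19, 6.79 and 6.55 in the LPS/HI group. Only the lowest array of the LPS/HI uninjured group, at 6.55, fell within the range of the LPS/HI+IDR uninjured group. That difference was -0.56 ± 0.13 (95% interval -0.83 to -0.29), with an unadjusted p of 0.000557 and an adjusted p of 1. A test of whether the late-minus-early difference depended on the peptide was added after these values were seen. For Ifi207 it gave -1.05 ± 0.24 (95% interval -1.54 to -0.56, unadjusted p 0.000214, adjusted p 0.795), and for Ifi203 -0.85 ± 0.28 (unadjusted p 0.00608, adjusted p 0.798). limma called 0 genes in it, and 1039 had an unadjusted p under 0.05. That number is close to the share of 0.05 of all 19937 genes that chance alone gives.

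None of the 4 genes was called in any comparison of the peptide with its absence, and neither was any other gene of the array. The numbers of genes with an unadjusted p under 0.05 were 277 in injured hemispheres, 376 in uninjured hemispheres, 2674 in LPS brains and 321 in brains without LPS. Chance alone gives a share of 0.05 of all 19937 genes, which only the number in LPS brains exceeded. In injured hemispheres Ifi213 was lower with IDR by the arrays, at 5.06, 5.33, 5.11, 5.08 and 5.23 in the LPS/HI+IDR group, against 5.57, 5.39, 5.27, 5.77 and 5.65 in the LPS/HI group. Only 1 array of each group lay within the range of the other. The difference was -0.37 ± 0.10 (95% interval -0.58 to -0.17, unadjusted p 0.00173, adjusted p 1), and -0.44 without the array high in both sex-linked signals. In LPS brains Ifi203 had a difference of 0.65 ± 0.24 (95% interval 0.13 to 1.16, adjusted p 0.329), Aim2 0.27 ± 0.12 (adjusted p 0.35) and Ifi213 0.21 ± 0.15 (adjusted p 0.522). Sex and the pretreatment itself differed there together with the peptide. The test of LPS by peptide, which called 1 gene of the array (0.00502%) and no family gene, gave 0.69 ± 0.32 for Ifi203 (95% interval 0.03 to 1.36, adjusted p 0.86) and 0.35 ± 0.23 for Ifi207 (adjusted p 0.86). Between IDR and Vehicle brains the 4 differences lay between -0.07 ± 0.12 and 0.26 ± 0.16, each with an adjusted p of 1.

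**Figure D4:**
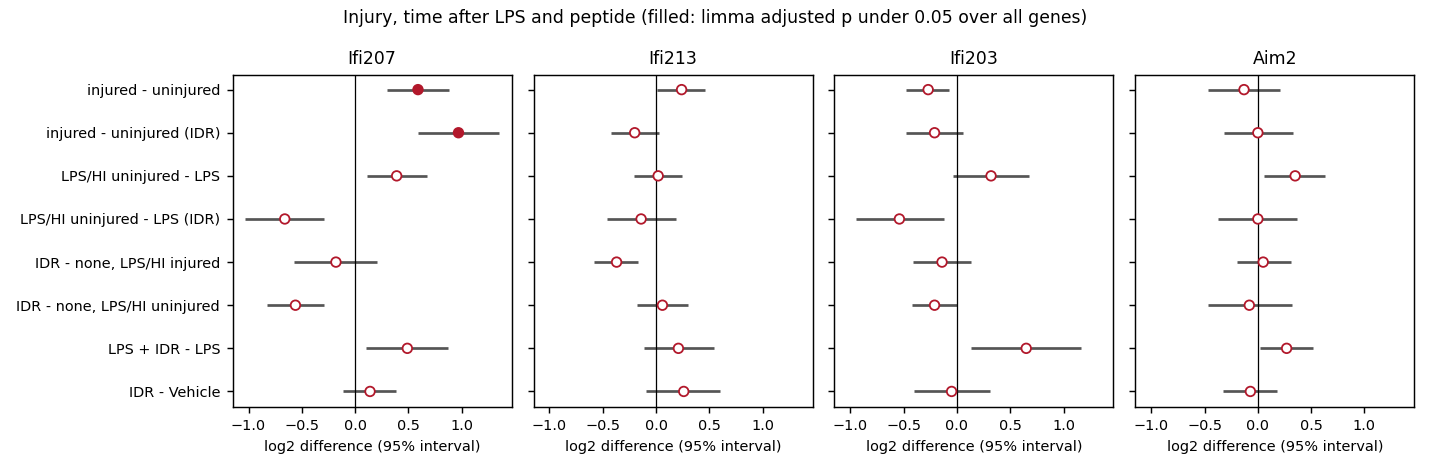
Log2 differences with 95% intervals for the 4 described genes in the 8 comparisons between hemispheres, between late and early samples and between IDR and no IDR, each as the group named first minus the group named second at the left. Filled points passed an adjusted p of 0.05 over all genes, which Ifi207 did in both comparisons of injured with uninjured hemispheres and no other gene did.

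Genes of the pathways around the family were counted from lists chosen with results of these data known. Of 17 measured genes of interferon signalling, 3 were called higher in LPS than in Vehicle brains, where 0.732% of all genes were, and none lower, with a list median of 0.03 against -0.02 for all genes. They were Irf7, the interferon regulatory factor of the amplification step (1.22 ± 0.09, adjusted p 5.72e-06), Usp18, an inhibitor of interferon receptor signalling (1.19 ± 0.10, adjusted p 1.42e-05), and Irf9, the DNA-binding subunit of the interferon-activated complex (0.47 ± 0.06, adjusted p 0.00117). Of 14 genes of cytosolic nucleic acid sensing, 4 were called higher and none lower (median 0.09). The 3 with the largest differences were the RNA sensor Ddx58 (0.79 ± 0.08, adjusted p 5.69e-05), Dhx58, a regulator of such sensors (0.59 ± 0.09, adjusted p 0.0029), and the RNA sensor Ifih1 (0.58 ± 0.07, adjusted p 0.000392). Of 14 inflammasome genes, 2 were higher and none lower (median 0.05), the cytokine gene Il1a (0.96 ± 0.14, adjusted p 0.00218) and Casp4, which encodes the sensor of intracellular LPS (0.72 ± 0.09, adjusted p 0.000769). With Xist as a covariate the calls of Dhx58 (0.49, adjusted p 0.117) and Il1a (0.93, adjusted p 0.0598) were lost.

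Between hemispheres without the peptide, where 2.18% of all genes were called higher, 1 of the 17 interferon signalling genes was, Irf8 (0.33 ± 0.07, adjusted p 0.0296), none of the nucleic acid sensing genes, and 2 of the 14 inflammasome genes, Il1a (1.04 ± 0.16, adjusted p 0.00336) and Il1b (0.77 ± 0.13, adjusted p 0.007). Without the array high in both sex-linked signals Irf8 had 0.37 (adjusted p 0.0151), Il1a 1.07 (adjusted p 0.00645) and Il1b 0.84 (adjusted p 0.00722). The call of Irf8 was lost in 9 of 16 settings, namely with arrays centred on their medians and without injured array 1, 2, 4 or 5 or uninjured array 2, 3, 4 or 5 (adjusted p 0.0529 to 0.0903). With the peptide, where 1.8% of all genes were called higher, the inflammasome genes called were Il1a (1.34 ± 0.31, adjusted p 0.0376) and Casp4 (0.37 ± 0.08, adjusted p 0.0255), and no gene of the other 2 lists was. Both calls were lost in 6 of 16 settings. That of Il1a was lost without injured array 5 or any 1 of the 5 uninjured arrays (adjusted p 0.062 to 0.0941), and that of Casp4 without injured array 1 or 5 or uninjured array 1, 3 or 5 and with arrays centred (adjusted p 0.0503 to 0.0731). None of these lists had a gene called lower between hemispheres.

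In LPS/HI+IDR uninjured hemispheres against LPS+IDR brains, where 0.441% of all genes were called lower, 3 of the 14 nucleic acid sensing genes were, Ddx58 (-0.71 ± 0.13, adjusted p 0.0221), Ifih1 (-0.66 ± 0.11, adjusted p 0.0132) and Samhd1, a nucleotide hydrolase (-0.53 ± 0.07, adjusted p 0.00327). So was 1 of the 14 inflammasome genes, Casp4 (-0.69 ± 0.09, adjusted p 0.00361), and no gene of the 3 lists was called higher. The call of Ddx58 was lost without uninjured array 3 or 5 or LPS+IDR array 2 or 5 (adjusted p 0.0569 to 0.0675).

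Family genes are expressed in macrophages and other immune cells, so markers of blood-derived cells are given beside them. The mean log2 level of 6 monocyte and macrophage markers was 6.01 (array range 5.88 to 6.18) in LPS/HI+IDR injured, 6.00 (5.88 to 6.12) in LPS/HI injured, 5.88 (5.82 to 5.91) in LPS/HI+IDR uninjured and 5.95 (5.85 to 6.19) in LPS/HI uninjured hemispheres. It was 5.78 in LPS+IDR and in LPS brains, 5.50 (5.35 to 5.58) in IDR brains and 5.51 (5.42 to 5.60) in Vehicle brains. Of the 6, 4 were called higher in LPS/HI injured than in Vehicle brains, beside 4.45% of all genes, and 3 without the array high in both sex-linked signals. In LPS against Vehicle brains 1 was called higher, beside 0.732%, and none differed past the threshold between hemispheres. The mean of 8 neutrophil markers was 5.51 (5.45 to 5.55) in LPS/HI+IDR injured against 5.39 (5.32 to 5.46) in LPS/HI+IDR uninjured hemispheres. It was 5.54 (5.46 to 5.59) in LPS/HI injured against 5.41 (5.38 to 5.51) in LPS/HI uninjured hemispheres, and the IDR and Vehicle brains had 5.42 and 5.39. None of the 8 was called between hemispheres, with or without the array high in both signals, and 1, S100a8, was called higher in LPS/HI+IDR injured hemispheres than in IDR brains (0.29 ± 0.06, adjusted p 0.0124), beside 3.52% of all genes. For 7 lymphocyte markers the group means lay between 5.31 (LPS+IDR) and 5.49 (LPS/HI injured), and none was called in any comparison of 2 groups.

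Some markers of resident cells were called between hemispheres as well. The mean of 6 endothelium markers was 9.03 (8.79 to 9.26) in LPS/HI+IDR injured against 8.87 (8.72 to 8.98) in LPS/HI+IDR uninjured hemispheres, and 8.98 (8.78 to 9.11) in LPS/HI injured against 8.83 (8.69 to 8.97) in LPS/HI uninjured hemispheres. Called higher were 2 of the 6 with the peptide, Pecam1 (0.46 ± 0.11, adjusted p 0.0395) and Cdh5 (0.36 ± 0.07, adjusted p 0.0229), and 1 without it, Pecam1 (0.39 ± 0.08, adjusted p 0.0176). The count without the peptide was 1 also without the array high in both signals. At 6 h after LPS the mean was 8.62 in LPS+IDR against 8.91 in IDR brains and 8.60 in LPS against 8.91 in Vehicle brains. There 2 (Tek and Kdr) were called lower in LPS+IDR against IDR, beside 0.311% of all genes, and 1 (Tek) in LPS against Vehicle, beside 0.1%. The mean of 7 microglia markers lay between 7.67 (LPS+IDR) and 8.04 (LPS/HI uninjured), but single markers moved in opposite directions. In LPS/HI injured hemispheres against Vehicle brains, Itgam (0.89 ± 0.09) and Aif1 (0.37 ± 0.10) were called higher and P2ry12 lower (-0.61 ± 0.09). Of all genes 8.34% were called either way there. The same genes were called in the same directions in LPS/HI+IDR injured hemispheres against IDR brains (5.87%). Itgam was called higher also in LPS/HI uninjured hemispheres than in Vehicle brains, beside 0.411% of all genes. P2ry12 and Siglech were called lower in LPS+IDR than in IDR brains, beside 0.311%. Between hemispheres without the peptide 1 of the 7, P2ry12, was called lower (-0.45 ± 0.11, adjusted p 0.0471), beside 0.813% of all genes. None was without the array high in both signals, and the counts for LPS/HI injured against Vehicle were the same without it. Of 8 neuron and 6 astrocyte markers none was called between hemispheres, and of 6 of the oligodendrocyte lineage 1 was called lower without the peptide and none without that array. In LPS/HI injured hemispheres against Vehicle brains, limma called 2 astrocyte markers higher, Gfap (0.63 ± 0.10, adjusted p 0.00138) and Aldoc (0.22 ± 0.06, adjusted p 0.0355). The neuron marker Tubb3 was called lower there (-0.47 ± 0.13, adjusted p 0.0383), beside 8.34% called either way. These counts were the same without that array. Gfap was higher also in LPS/HI+IDR injured hemispheres than in IDR brains (0.48 ± 0.12, adjusted p 0.0337), beside 3.52%. Neuron means were lowest in the injured groups, at 12.08 (12.05 to 12.12) in LPS/HI+IDR injured against 12.18 (12.12 to 12.23) in LPS/HI+IDR uninjured hemispheres. Without the peptide they were 12.09 (12.06 to 12.18) in injured against 12.21 (12.16 to 12.23) in uninjured hemispheres. Astrocyte means lay between 10.68 (IDR) and 10.85 (LPS/HI+IDR injured), and oligodendrocyte lineage means between 9.33 (both injured groups) and 9.45 (LPS). The part of these cells in the levels of Ifi207 was not tested, and in bulk RNA more cells of a type and more RNA per cell cannot be told apart.

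The genes most like each described gene over the 40 arrays, by Pearson correlation and outside the family, are given as a description, since the arrays share group and processing. For Ifi207 they were Fcgr4 (0.917), Slfn2 (0.893) and Parp12 (0.886). After the group means were taken out, the correlations were 0.378, 0.71 and 0.683. For Ifi203 they were Trim30d (0.760, and 0.570 after the group means were taken out), Trim12a (0.731) and Ms4a6b (0.726). For Ifi213 they were lower, at 0.656 with Slfn2, 0.646 with Usp18 and 0.629 with Rtp4. For Aim2 they were Fam76b (0.799), Khdrbs2 (0.729) and Rnpc3 (0.727), none of which was among those of the other 3 genes. With the group means taken out these 3 were 0.813, 0.79 and 0.671, so this likeness was present within groups. Within the family, Ifi207 correlated at 0.63 with Ifi205, 0.59 with Ifi209, 0.57 with Ifi203 and 0.57 with Ifi213. After the group means were taken out, these were 0.11, 0.36, 0.65 and 0.29. Ifi213 and Aim2 correlated at 0.13 over the 40 arrays.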

How the data were processed

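The authors deposited log2 signals, 1 per probe set and array. Per the submitters' processing notes these were made with RMA and the affy package, whose versions are not given in the sources used here. The 34760 probe sets were named from an array annotation, and symbols were updated through gene IDs. Of these, 21640 had 1 symbol, 1321 several and 11799 none. For each of 19937 genes the probe set with 1 symbol and the highest mean was kept, with no filter on signal.

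In R 4.3.3, moderated linear models of limma 3.58.1 were fitted to the arrays of the groups compared, with Benjamini-Hochberg adjustment over all 19937 genes. These gave 14 comparisons of 2 groups and 3 interactions, of which 1 (time by peptide) was added after seeing the data. Errors are SE for differences and SD for means. The number of arrays limits the precision: the median half-width of a 95% interval was 0.15 to 0.18 for comparisons of 2 groups. Whether arrays are separate animals is not in the labels, so the p-values measure the spread between these samples. The fitting was tested on simulated data.

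The described genes, the lists and the tests were chosen with earlier results of these data known. Named genes were all listed and family genes, up to 3 called genes per list and comparison, by size of difference, and the 3 most correlated genes. Marker lists covered 8 cell types.

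Sample numbers were checked as pairs by correlating deviations from the group means. Between LPS/HI injured and uninjured hemispheres they correlated at 0.392 to 0.646, each array best with its own number, and between LPS/HI injured hemispheres and Vehicle brains at 0.116 to 0.443. By rule these numbers were marked as pairs, although the labels name no shared animal. The fits given as main results used no pairs, and the number as a block was an alternative only. LPS/HI and Vehicle brains were treated differently, so there an equal number cannot mean a shared animal. Between the hemispheres with the peptide the range was 0.088 to 0.589, with 3 of 5 best with their own number. These were not marked as pairs. In 9 of 10 numbers both hemispheres had the same sex-linked signal. Promoter sequences came from RefSeq's GRCm38.p6 and were aligned with Biopython 1.88 in Python 3.11.15. Figures used pandas 2.3.3 and matplotlib 3.10.9.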

Additional observations from a re-analysis of the deposited data

Results flagged for a closer look

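Of 80 sets of 5 arrays (10 family genes in 8 groups), 5 held a value whose gap to its nearest neighbour was over 0.71 of the whole range, Dixon's limit for 5 values. Chance gives about 1 in 20, and none of the 5 concerned the 4 described genes. Ifi202b was high on array 1 of the LPS/HI+IDR injured group (4.43, the others at most 3.61), of the LPS/HI injured group (4.80, the others at most 3.80) and of the LPS/HI uninjured group (4.46, the others at most 3.70). Array 1 was also the highest for Ifi202b in the LPS/HI+IDR uninjured (4.13), LPS+IDR (3.97) and LPS (4.88) groups. The cause was not tested. Ifi206 was low on array 4 of the LPS/HI+IDR injured group (4.70, the next 4.95). Ifi208 was low on array 3 of the LPS+IDR group (4.12, the next 4.34).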

How the results depend on the processing

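The alternatives were all 8 groups in 1 fit, low signals left out (highest group mean under 5, leaving 17648 genes and 6 of the 10 family genes), the mean of a gene's probe sets, arrays centred on their medians, Xist as a covariate, the replicate number as a block, and each array left out in turn. No called difference changed sign. The cause of the changes was not tested. With all groups in 1 fit, genes called were 67 in LPS/HI+IDR uninjured against IDR (40 as reported), 1909 in LPS/HI+IDR injured against IDR (1171), 69 in LPS/HI uninjured against LPS (27), 251 in LPS/HI+IDR uninjured against LPS+IDR (127, with 1 described gene called in place of 0), 1431 between hemispheres without (596) and 1432 with the peptide (498), and 0 in the test of LPS by peptide (1), which was 0 also with low signals left out. With Xist as a covariate they were 86 in LPS against Vehicle (166), 53 in LPS/HI uninjured against Vehicle (87), 917 in LPS/HI injured against Vehicle (1663), 21 in LPS/HI+IDR uninjured against IDR, 13 in LPS/HI uninjured against LPS and 1085 between hemispheres with the peptide, and 1 described gene was called in LPS+IDR against IDR (2). With the replicate block they were 498 in LPS/HI+IDR injured against IDR, 2032 between hemispheres without and 894 with the peptide. The block changed the call of no described gene. Among other family genes, Ifi202b passed with it in LPS against Vehicle (adjusted p 0.0287) and Ifi206 in LPS/HI+IDR uninjured against LPS+IDR (adjusted p 0.03), and Ifi205 lost its call with it in LPS/HI+IDR injured against IDR (adjusted p 0.0751). Ifi205 passed in LPS against Vehicle without LPS array 2 (0.54, adjusted p 0.0105) and with all groups in 1 fit in LPS/HI+IDR uninjured against LPS+IDR (-0.60, adjusted p 0.0385), and Ifi209 in LPS/HI+IDR injured against IDR without injured array 4 (0.50, adjusted p 0.035). Each of these differences of Ifi205 and Ifi209 passed in no other setting. With arrays centred, 0 described genes were called between hemispheres without the peptide (1).

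With each array left out in turn, genes called ranged from 51 to 95 in LPS/HI uninjured against Vehicle, 964 to 1798 in LPS/HI injured against Vehicle, 21 to 66 in LPS/HI+IDR uninjured against IDR, 705 to 1196 in LPS/HI+IDR injured against IDR, 15 to 27 in LPS/HI uninjured against LPS, 59 to 160 in LPS/HI+IDR uninjured against LPS+IDR, 285 to 641 between hemispheres without and 230 to 515 with the peptide, and 0 to 2 in the test of LPS by peptide. Described genes called ranged from 1 to 2 in LPS+IDR, LPS/HI+IDR uninjured and LPS/HI+IDR injured against IDR, and from 0 to 1 between hemispheres without the peptide. In the time-by-peptide test none was called under any alternative, with Ifi207 between -1.16 and -0.91.

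The array names probe sets by an old annotation, near-identical copies share sequence, and RMA hides a shift shared by all genes.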
